A study of Homo sapiens with 6 samples.

Results

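The cytosolic ribosomal protein genes are 86 protein-coding genes of the 58735 genes in the count table, taken by symbol: names of the RPL and RPS series together with RPSA, RPLP0, RPLP1 and RPLP2, and without the RPS6K kinases. They comprise 52 genes of the large subunit series and 34 of the small subunit series, and 9 of them are listed here as paralogs of another member. Poly(A) RNA was sequenced from LoVo cells, a human colorectal adenocarcinoma line. There were 3 libraries of cells transfected with the non-targeting siRNA (si-NC) and 3 libraries of cells transfected with siRNA against SRSF11 (si-SRSF11). The study lists 3 siRNAs against SRSF11, and its sequencing methods and the sample titles do not say which of them, or whether a mix, was used. SRSF11 is a serine and arginine rich splicing regulator, and the comparison asked how its knockdown changed the transcriptome. The RNA samples are described by the study as independent and as pairs of control and knockdown, without saying whether they came from separate cultures or which control goes with which knockdown, and the labels give no dose and no time after transfection. The p-values measure the spread between these libraries, which may be technical.

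Each ribosome carries a set of ribosomal proteins bound to the ribosomal RNAs of a large subunit, which forms the peptide bonds, and a small subunit, which reads the mRNA. The mRNAs of these proteins are among the most abundant of a growing cell, and nearly all begin with a C followed by an uninterrupted run of pyrimidines, the terminal oligopyrimidine (TOP) tract, through which mTORC1 signalling and the LARP1 protein set their translation together. Many of the genes have processed pseudogenes, and several host small nucleolar RNAs in their introns.

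The TOP tract is the feature that most of these genes share outside their names. The bases around the annotated start are therefore shown for members that lead the results below. Among the members shown are RPL7L1 and RPS29, whose windows at that start hold no run of C and T longer than 4 bases. Each line runs from 15 bases before the start to the 15 bases that begin the transcript, 5′ to 3′ on the gene's strand, from RefSeq on build GRCh38.p14, and capitals mark the longest run of C and T. The positions are chr17:74203663-74203692 (plus strand) for RPL38, chr1:153990747-153990776 (plus strand) for RPS27, chrX:119791616-119791645 (minus strand) for RPL39, chr20:62387088-62387117 (plus strand) for RPS21, chr3:170870181-170870210 (minus strand) for RPL22L1, chr6:42879601-42879630 (plus strand) for RPL7L1 and chr14:49598696-49598725 (minus strand) for RPS29.
RPL38: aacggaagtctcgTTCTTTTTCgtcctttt
RPS27: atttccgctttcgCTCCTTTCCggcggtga
RPL39: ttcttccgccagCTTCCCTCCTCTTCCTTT
RPS21: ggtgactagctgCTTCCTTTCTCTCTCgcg
RPL22L1: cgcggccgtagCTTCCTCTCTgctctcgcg
RPL7L1: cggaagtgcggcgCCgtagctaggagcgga
RPS29: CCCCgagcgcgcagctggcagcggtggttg
The runs of RPL38, RPS27, RPL39, RPS21 and RPL22L1 cross the start, whereas no run longer than 4 bases was found in the windows of RPL7L1 and RPS29. Of the 86 members, 69 had a RefSeq start, with 85 starts in all. A run of C and T of at least 6 bases lay within the 30 bases around 67 of the 85 starts, or 78.8%, against 31.1% of all 35116 starts in the table. For a run of at least 8 bases the shares were 67.1% and 13.7%. The letters CCGGAAG, which lie in the binding site of ETS factors, were found on either strand in 32.9% of the 300-base promoters of members and in 10.3% of all promoters, and AAGATGG in 10.6% and 5.84%. These are matches of letters at annotated starts, which need not be the starts used in LoVo.

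The 6 libraries held 14369525 to 16685719 counts. SRSF11 itself, read first as a check of the labels, stood at 87.6, 84.3 and 87.5 CPM (counts divided by the library size, which was scaled by the trimmed mean of M values, TMM) in si-NC and at 50.4, 48.5 and 49.5 CPM in si-SRSF11, a log2 fold change of −0.81 ± 0.05 (SE, edgeR quasi-likelihood test, Benjamini-Hochberg adjusted p = 6.1e-10). Of 12 colorectal epithelial markers, 10 were above 1 CPM in every library, and of 14 markers of blood, stroma, liver and muscle 11 were under 1 CPM in every library, with sums of 16.0 to 16.8 CPM in si-NC and 15.6 to 18.3 CPM in si-SRSF11. Genes of the mitochondrial genome took 7.0% to 7.25% of all counts in si-NC and 8.29% to 8.51% in si-SRSF11, a rise that lowers the share left for all other genes, and its part in the results was not tested. The test took in 15801 genes, those that reached 10 counts in 3 or more libraries, and 13.2% of them were called higher and 11.4% lower in si-SRSF11 at an adjusted p under 0.05. With library size alone in place of TMM, 1585 genes were higher and 2289 lower, against 2081 and 1805 with TMM.

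More ribosomal protein genes were higher than lower after the knockdown, and the changes were small. Of the 82 members that passed the filter, 23 were higher (28%, beside 13.2% of all tested genes), 1 was lower (1.22%, beside 11.4%) and 58 were not called. Precision grows with level, and of the 155 other protein-coding genes at or above the lower quartile of the members' level 36.1% were higher and 23.2% lower, both above the shares of the members. The folds of the 23 genes lay between 1.08 and 1.35. Whether called or not, 65 of the 82 log2 fold changes were positive, with a median of 0.089 beside 0.0015 over all tested genes. In 24 members all si-SRSF11 libraries lay above all si-NC libraries, where 20.0% of all tested genes did so, and in 2 members they lay below, where 18.9% of all tested genes did so. The other 4 members, RPL10L, RPL39L, RPS4Y1 and RPS4Y2, had 0 counts in every library, which allows up to 0.032 CPM over the 6 libraries pooled (3 counts, counting error only).

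The calls were not carried equally by the libraries. The median of the 82 members, as log2 CPM minus the si-NC mean, was −0.012, −0.0018 and 0.020 in the si-NC libraries and −0.0011, 0.067 and 0.18 in si-SRSF11 libraries 1, 2 and 3. The third si-SRSF11 library held the highest value of 63 of the 82 members, and of 19 of the 23 called higher. As a share of all counts the members took 8.19%, 8.23% and 8.31% in si-NC (8.25% ± 0.059, SD, n = 3) and 8.0%, 8.35% and 8.91% in si-SRSF11 (8.42% ± 0.46, SD, n = 3), so the shares of the 2 conditions overlapped and the first si-SRSF11 library had the lowest of all. The difference of the mean shares was 0.17 percentage points, and −0.072 without si-SRSF11 library 3. Without si-SRSF11 library 3, 16 of the 82 members were higher and 7 lower, with a median of 0.034. Of all 15559 genes tested there, 1981 were higher and 1890 lower, so the 7 were a smaller share than that of all genes. The 7 were RPL7L1 and 6 abundant genes, RPL8, RPL18, RPL41, RPLP1, RPS2 and RPS12, named here after their values were seen. Without si-SRSF11 library 1, 38 members were higher and 1 lower, beside 1839 and 1724 of 15579 genes. Without si-NC library 1, 9 members were higher and 2 lower, beside 1473 and 1268 of 15626 genes. The share of members called higher then lay near that of all genes. Without si-NC library 2, 15 members were higher and 1 lower, beside 1565 and 1444 of 15565 genes. The 9 members called higher in the main test and under each of the 15 alternatives tried were RPL6, RPL22L1, RPL26, RPL38, RPS13, RPS14, RPS26, RPS27 and RPS29.

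**Figure D1:**
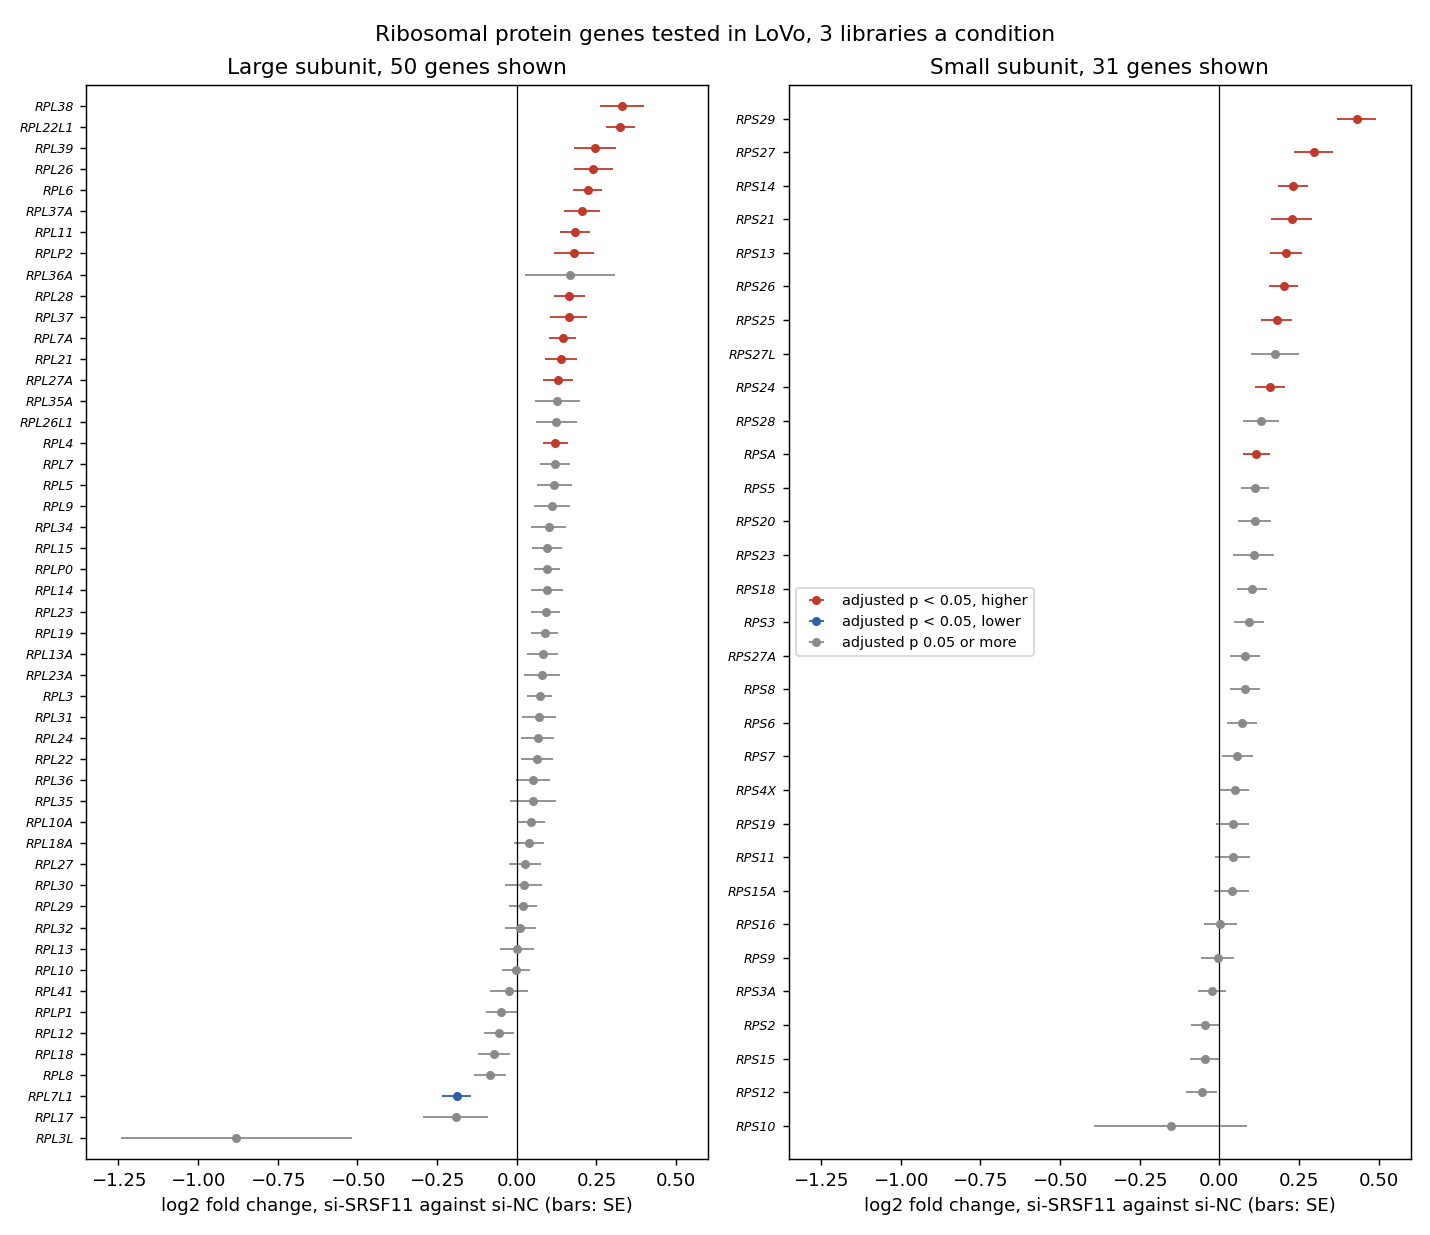
The log2 fold change of si-SRSF11 against si-NC (x axis) with its SE for 81 of the 82 tested ribosomal protein genes, large subunit on the left and small subunit on the right, coloured by the call at an adjusted p of 0.05. The points of 65 genes lie right of 0, the 23 called higher reach from 0.12 to 0.43, and RPL7L1 is the single gene called lower.

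In the small subunit, 9 of 32 tested genes were higher (28.1%, beside 13.2% of all tested genes) and none lower by edgeR or DESeq2. An unadjusted edgeR p under 0.05 was reached by 14, all with positive changes. RPS29, a small zinc-binding protein of the head of the subunit, stood at 204, 237 and 242 CPM in si-NC and at 283, 312 and 325 CPM in si-SRSF11. The groups did not overlap, and this was the largest rise among the members (log2 fold change 0.43 ± 0.06, SE, edgeR adjusted p = 1.71e-05). RPS29 (chromosome 14, 49570984 to 49599164 on hg38, minus strand) encodes 56 residues. RPS27, another zinc-finger protein of 84 residues, was at 583, 675 and 631 CPM in si-NC and at 685, 823 and 812 CPM in si-SRSF11 (0.30 ± 0.06, edgeR adjusted p = 0.00106). The lowest si-SRSF11 value of RPS27 lay just above the highest si-NC value. Of 100-base windows of the RPS27 transcript, 60% also occur in transcripts of other genes, so its count depends on how such reads were assigned.

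RPS14, a protein of the platform of the small subunit whose gene is deleted in a form of myelodysplastic syndrome, was even in si-NC but not in si-SRSF11. Its si-NC values were 926, 926 and 930.5 CPM and its si-SRSF11 values 1016, 1075 and 1175 CPM, with no overlap (0.23 ± 0.05, edgeR adjusted p = 0.00113). RPS26, a protein of the mRNA exit channel, was at 540.5, 543 and 538 CPM in si-NC and at 623, 591 and 652 CPM in si-SRSF11 (0.20 ± 0.05, edgeR adjusted p = 0.0023). RPS13 was at 418, 426 and 427 CPM in si-NC and at 457, 494 and 518 CPM in si-SRSF11 (0.21 ± 0.05, edgeR adjusted p = 0.00301). In both genes every si-SRSF11 library lay above every si-NC library. RPS21, RPS24, RPS25 and RPSA, the last also described as a laminin receptor, were the other small subunit genes called higher, with log2 fold changes of 0.12 to 0.23.

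In the large subunit, 14 of 50 tested genes were higher and 1 lower (28% and 2%, beside 13.2% and 11.4% of all tested genes). RPL38, a protein of 70 residues whose loss in mice disturbs axial patterning, was at 285, 308 and 312 CPM in si-NC and at 321, 404 and 413 CPM in si-SRSF11 (0.33 ± 0.07, edgeR adjusted p = 0.00106). Its first si-SRSF11 library was only just above the si-NC libraries and the other 2 were far above. RPL6 was at 884, 868 and 884 CPM in si-NC and at 969, 1030.1 and 1078 CPM in si-SRSF11 (0.22 ± 0.05, edgeR adjusted p = 0.000861), again with no overlap. RPL26, which lines the exit of the peptide tunnel, was read at a low level of 61.9, 67.4 and 60.4 CPM in si-NC and 69.5, 78.3 and 76.2 CPM in si-SRSF11 (0.24 ± 0.06, edgeR adjusted p = 0.00527). Counted as for RPS27, 53.5% of the RPL26 windows and 50.3% of the RPL6 windows also occur in transcripts of other genes. Of the transcript, 59.0% in RPL26 and 57.8% in RPL38 overlaps another annotated gene. The counts of RPL26, RPL6 and RPL38 therefore also depend on how such reads were assigned.

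RPL11, which with RPL5 binds and inhibits MDM2 when ribosome assembly fails, was at 665, 686 and 681 CPM in si-NC and at 714, 801 and 793 CPM in si-SRSF11 (0.18 ± 0.05, edgeR adjusted p = 0.00678). Its adjusted p was 0.0551 without si-NC library 1. RPL5 had a log2 fold change of 0.12 ± 0.06 and was not called (edgeR adjusted p = 0.124). RPL39, a protein of the tunnel wall and with 51 residues among the shortest, was at 271, 285 and 278 CPM in si-NC and at 279.5, 349.7 and 359 CPM in si-SRSF11 (0.25 ± 0.07, edgeR adjusted p = 0.00847). The first si-SRSF11 library of RPL39 lay inside the si-NC range, and the call was lost with DESeq2 (adjusted p = 0.106). RPL4, RPL7A, RPL21, RPL27A, RPL28, RPL37 and RPL37A were also higher, by 0.12 to 0.20 on the log2 scale.

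**Figure D2:**
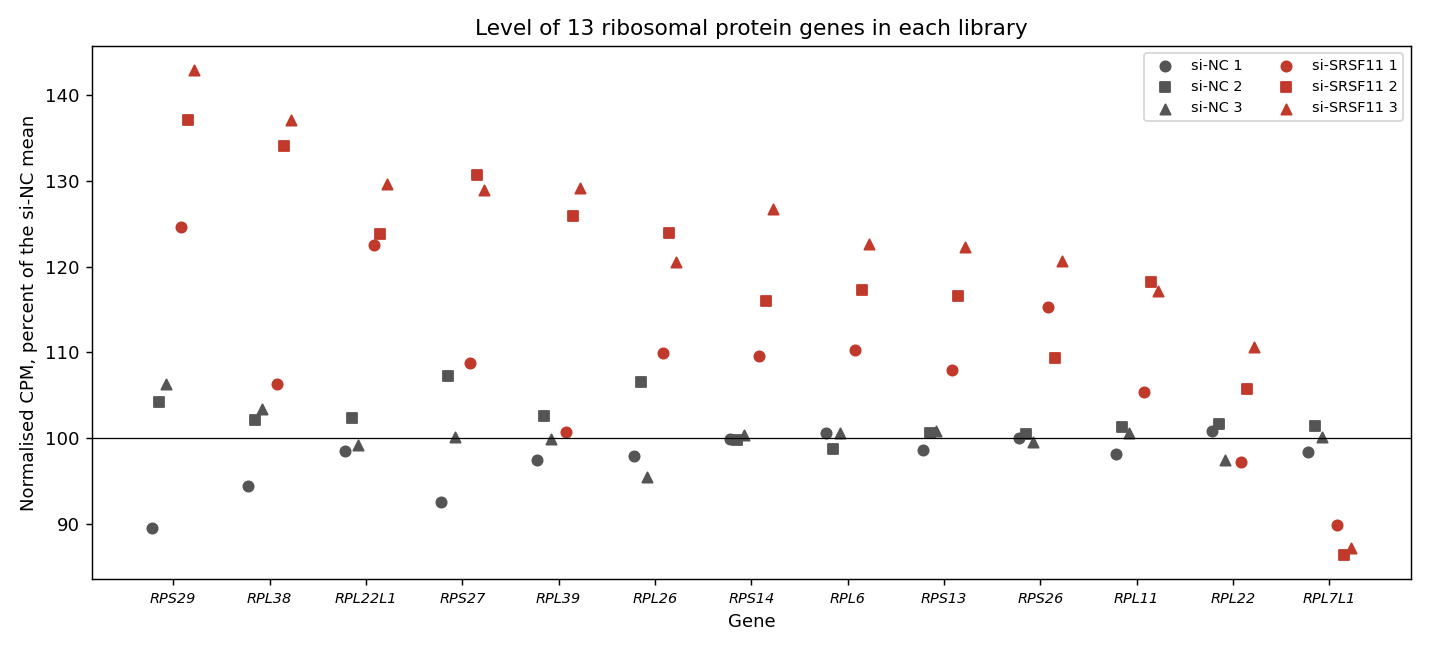
The normalised CPM of 13 ribosomal protein genes (x axis) in each of the 6 libraries, as a percentage of the gene's si-NC mean (y axis), grey for si-NC and red for si-SRSF11, with circles, squares and triangles for replicates 1, 2 and 3. RPS29, RPL38, RPL22L1, RPS27, RPL26, RPS14, RPL6, RPS13, RPS26 and RPL11 do not overlap between conditions and RPL7L1 lies below, and in most genes the red circle is the lowest red point.

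The stalk of the large subunit is built from RPLP0, RPLP1 and RPLP2, where RPLP0 holds dimers of RPLP1 and RPLP2 that recruit elongation factors. RPLP2 was at 738, 764 and 802 CPM in si-NC and at 747, 964 and 899 CPM in si-SRSF11, overlapping in its first si-SRSF11 library (0.18 ± 0.06, edgeR adjusted p = 0.0426). RPLP0 was at 2891, 2826 and 2922 CPM in si-NC and at 3083, 2909 and 3236 CPM in si-SRSF11 (0.10 ± 0.04, edgeR adjusted p = 0.0963). RPLP1 was at 1887, 1939.9 and 1946 CPM in si-NC and at 1746, 1800.0 and 2037 CPM in si-SRSF11 (−0.05 ± 0.05, edgeR adjusted p = 0.513). Only RPLP2 of the stalk genes was called, and the difference between the 3 was not tested.

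The members with the highest level per length were not among those called. On length-scaled levels (TPM) computed with the gene length in the table, the highest of the large subunit were RPL8, RPL41 and RPL13A, with si-NC means of 7041, 3592 and 3498, and of the small subunit RPS2, RPS12 and RPS18, with 5405, 3762 and 2541. This order depends on the length used, since that length joins all annotated exons. Per kilobase of coding sequence RPL41, which encodes 25 residues, came first at 17329 CPM. RPL8, near the peptidyl transferase centre, was at 5127, 5023 and 5013 CPM in si-NC and at 4258, 4808 and 5236 CPM in si-SRSF11 (log2 fold change −0.08 ± 0.05, edgeR adjusted p = 0.235). RPS2 was at 4338, 4225 and 4446 CPM in si-NC and at 3936, 4122 and 4560.4 CPM in si-SRSF11 (−0.04 ± 0.04, edgeR adjusted p = 0.516). In both genes the si-SRSF11 libraries fell on both sides of the si-NC range. RPL41 (−0.02 ± 0.06), RPL13A (0.08 ± 0.05), RPS12 (−0.06 ± 0.05) and RPS18 (0.10 ± 0.05) were not called either. Without si-SRSF11 library 3, RPL8 was called lower (−0.16, edgeR adjusted p = 0.00181).

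The paralogs, several of which (not all) stand in for a ubiquitous member in certain tissues or states, went different ways. RPL22L1, the paralog of the RNA-binding protein RPL22, was at 229, 238 and 231 CPM in si-NC and at 285, 288 and 302 CPM in si-SRSF11, with narrow groups that did not overlap (0.33 ± 0.05, edgeR adjusted p = 2.04e-05). RPL22 was at 172, 173 and 166 CPM in si-NC and at 166, 180.3 and 189 CPM in si-SRSF11 (0.06 ± 0.05, edgeR adjusted p = 0.396). Per coding length the level of RPL22L1 was 140%, 144% and 146% of that of RPL22 in si-NC and 180%, 168% and 168% in si-SRSF11, so the ratio itself did not overlap between conditions, for which 3 against 3 libraries allow no exact p under 0.1.

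RPL7L1, the paralog of RPL7, was the single member called lower. It was at 296, 305 and 302 CPM in si-NC and at 271, 260.0 and 262 CPM in si-SRSF11 (−0.19 ± 0.05, edgeR adjusted p = 0.00385). RPL7 was not called (0.12 ± 0.05, edgeR adjusted p = 0.0685). Per coding length RPL7L1 stood at 26.1%, 27.5% and 27.0% of RPL7 in si-NC and at 24.2%, 20.6% and 20.7% in si-SRSF11. Counted as for RPS27, 60.5% of the RPL7 windows also occur in transcripts of other genes, so this ratio depends on how such reads were assigned. The conditions did not overlap in this ratio, as in RPL7L1 itself, and RPL7L1 was called lower under each alternative.

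RPS27L, a p53-induced paralog of RPS27, was at 38.6, 43.0 and 43.3 CPM in si-NC and at 44.5, 43.9 and 52.6 CPM in si-SRSF11 (0.17 ± 0.07, edgeR adjusted p = 0.0891). RPL26L1 had overlapping groups (0.12 ± 0.07, edgeR adjusted p = 0.174). RPL3L, the paralog of RPL3 in striated muscle, was near the limit of detection at 0.90, 1.45 and 2.12 CPM in si-NC and at 0.83, 0.80 and 0.80 CPM in si-SRSF11 (−0.88 ± 0.36, edgeR adjusted p = 0.0816), and RPL3 was not called (0.07 ± 0.04, adjusted p = 0.195). RPL10 (−0.0014 ± 0.04), RPS4X (0.05 ± 0.05) and RPL36A (0.17 ± 0.14), whose listed paralogs had 0 counts or a name outside the rule, were not called.

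The rises were larger in genes of short proteins, a split chosen after the values were seen and described here without a test. Of the 10 tested members that encode at most 100 residues, 7 were higher, with a median log2 fold change of 0.22. Among these 7, RPS21, RPL37 and RPL39 overlapped between conditions, and DESeq2 called 4 of the 10 higher. Of 48 members with over 100 and up to 200 residues, 12 were higher (median 0.075), and of 24 members with over 200 residues 4 were higher and 1 lower (median 0.081). Over the 82 members the log2 fold change had a Pearson correlation of −0.39 and a Spearman correlation of −0.34 with the log2 of the protein length, points that share the same 6 libraries. Over the 75 members with a mean of at least 1000 counts the correlations were −0.34 and −0.29. Among the other tested protein-coding genes, 20.7% of 261 with at most 100 residues were higher (median 0.028), 11.7% of 1324 with over 100 and up to 200 (median −0.018) and 15.6% of 11103 with over 200 (median 0.017), and the Pearson correlation was 0.07 over 12688 genes. Over the 155 other genes at the members' level the Pearson correlation was −0.11 and the Spearman correlation −0.08, and both of the 2 such genes with at most 100 residues were higher (median 0.31). Protein length was not the only trait that went with the changes. Over the 82 members the log2 fold change correlated with the GC percent of the transcript at −0.29 (Pearson) and −0.34 (Spearman). Log2 protein length and GC percent correlated at 0.15 and 0.18, and their separate parts were not tested. RPL41, with the shortest protein of all, went against the trend with length.

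**Figure D3:**
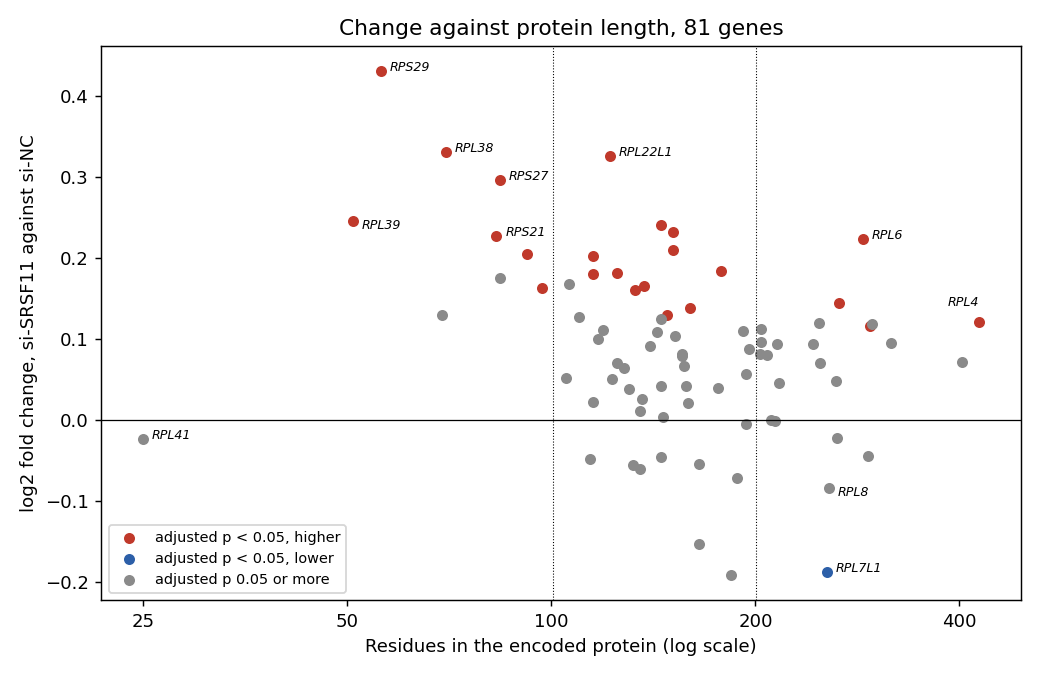
The log2 fold change of si-SRSF11 against si-NC (y axis) against the number of residues of the encoded protein (x axis, log scale) for 81 tested ribosomal protein genes, with RPL3L at −0.88 left out of the plot and dotted lines at 100 and 200 residues. Of the 10 genes left of the first line 7 are called higher, and RPL41 at 25 residues lies at −0.02.

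The difference by protein length also existed between libraries of 1 condition. The summed CPM of the members with at most 100 residues was 12%, 13.4% and 12.9% of the sum of those with over 200 residues in si-NC and 13.1%, 14.2% and 14.3% in si-SRSF11, so the first si-SRSF11 library lay inside the si-NC range. Against the mean of the other si-NC libraries, the log2 level in si-NC library 2 had a Pearson correlation of −0.38 and a Spearman correlation of −0.50 with log2 protein length, and that in si-NC library 1 had 0.08 and 0.48. Without si-NC library 1, 3 of the 10 short members were higher (median 0.17), and without si-SRSF11 library 3, 5 were higher and 1 lower (median 0.14). The library preparation favoured cDNA fragments of about 250 to 300 bp, and fragment sizes of each library were not analysed here.

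**Figure D4:**
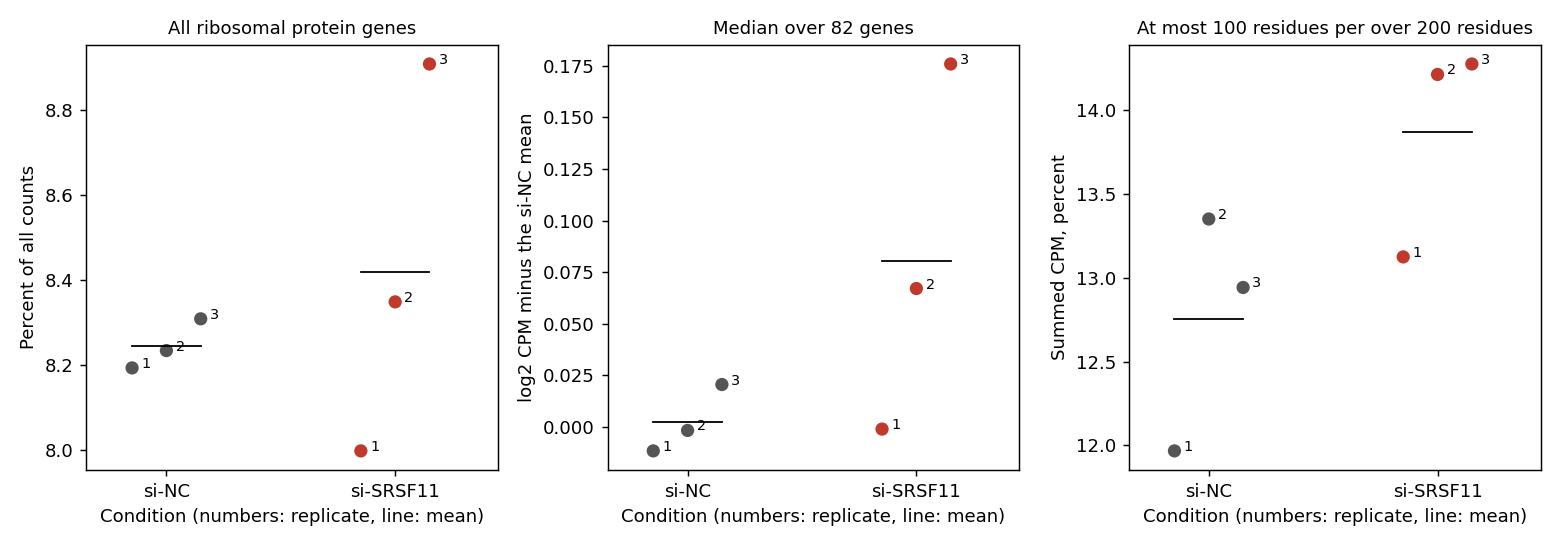
For each library, with the replicate number beside the point and a line at the mean of 3, the share of all counts on the ribosomal protein genes (left, percent), the median log2 CPM of 82 members minus the si-NC mean (middle) and the summed CPM of members of at most 100 residues as a percentage of that of members of over 200 residues (right). The y axes do not start at 0, and in each panel si-SRSF11 library 1 lies inside or below the si-NC range and library 3 above it.

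Many members share sequence with other genes. Of the 82 tested members, 53 shared at least 1% of the 100-base windows of their transcript with another gene and 29 did not. Of the 53, 14 were higher and 1 lower (26.4% and 1.89%, median 0.088), and of the 29, 9 were higher (31%, median 0.091). Both shares of higher genes lay near the 28% of all tested members, beside 13.2% of all tested genes. RPL17, RPS10 and RPL36A, which share 64% to 81% of their windows with other genes, were among the tested members with the lowest levels and had wide errors, and none of the 3 was called by edgeR, with none at an unadjusted p under 0.05. The pseudogenes named after members took 0.410% to 0.415% of all counts in si-NC and 0.407% to 0.436% in si-SRSF11. Of the 86 that passed the filter, 15 were higher and 3 lower (17.4% and 3.49%, beside 13.2% and 11.4% of all tested genes), with a median log2 fold change of 0.12. The 3 with the most counts were RPS2P5, RPL9P9 and RPS2P46, with log2 fold changes of 0.10 ± 0.07, −0.01 ± 0.05 and 0.11 ± 0.08 and edgeR adjusted p of 0.283, 0.944 and 0.3. With the pseudogene counts added to their members, 24 members were higher and 1 lower.

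Over all 82 tested members 28% were higher and 1.22% lower, beside 13.2% and 11.4% of all tested genes, and the splits below were not tested. Of the 28 members that host small nucleolar RNAs 9 were higher (32.1%, median 0.081). Of the 54 other tested members 14 were higher (25.9%) and RPL7L1 lower (1.85%, median 0.094). Of the 58 tested members with a pyrimidine run of at least 6 bases at a RefSeq start, 20 were higher (median 0.094). Of the 8 without one, RPL6 and RPS29 were higher and RPL7L1 was lower (median 0.084).

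Further ribosome components carry names outside the RPL and RPS series. FAU, a fusion of a ubiquitin-like protein and a small subunit protein, was at 356, 352 and 391 CPM in si-NC and at 349.7, 342 and 396 CPM in si-SRSF11 (−0.01 ± 0.06, edgeR adjusted p = 0.885). RACK1, a scaffold for kinases on the small subunit, was at 1652, 1629 and 1671 CPM in si-NC and at 1667, 1695 and 1761 CPM in si-SRSF11 (0.05 ± 0.04, edgeR adjusted p = 0.405). In both genes the conditions overlapped, and neither was called.

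In the lists of related genes calls fell in both directions. Of 30 tested genes with other TOP RNAs, mainly translation factors and snoRNA host transcripts, 9 were higher and 5 lower (30% and 16.7%, beside 13.2% and 11.4% of all tested genes). In this list the importin IPO5 rose (0.35 ± 0.05, edgeR adjusted p = 8.03e-06) and the non-coding snoRNA hosts GAS5 (−0.42 ± 0.05, adjusted p = 1.26e-06) and SNHG5 (−0.39 ± 0.06, adjusted p = 4.59e-05) fell. Of 24 regulators of TOP mRNAs, 4 were higher and 3 lower, shares of 16.7% and 12.5% that lie near those of all tested genes. The called genes included the La protein gene SSB (0.44 ± 0.05, edgeR adjusted p = 4e-06), the translation repressor EIF4EBP1 (−0.31 ± 0.06, adjusted p = 0.000322) and the mTORC1 component AKT1S1 (0.23 ± 0.05, adjusted p = 0.00282).

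Of 26 genes for the import and assembly of ribosomal proteins, 6 were higher and 2 lower (23.1% and 7.69%, beside 13.2% and 11.4% of all tested genes), with a median of 0.12. IPO5, IPO7 (0.31 ± 0.05, edgeR adjusted p = 5.56e-05) and TSR1 (0.23 ± 0.06, adjusted p = 0.00495) had the smallest p. IPO5 and IPO7 carry ribosomal proteins into the nucleus. Both are among the genes that are also in the list of TOP RNAs above, so the counts of these lists share genes. Of 22 genes that act when ribosomal proteins are in excess or ribosomes stall, 2 were higher and 3 lower, shares of 9.09% and 13.6% that also lie near those of all tested genes. These were MDM2 (0.27 ± 0.06, edgeR adjusted p = 0.00101), the ribosome recycling factor ABCE1 (0.21 ± 0.05, adjusted p = 0.00312), and, lower, the ubiquitin ligase of collided ribosomes ZNF598 (−0.16 ± 0.05, adjusted p = 0.0181), TCF25 and EDF1, the last 2 named after their values were seen.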

How the data were processed

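Libraries were made with a poly(A) selection and random primers and read in pairs. The authors deposited 1 table of whole-number read counts per gene for the 6 libraries, on hg38 according to the submitters' processing notes. The aligner, the counting tool and the use of strand are not given in the sources used here, so reads shared by paralogs, pseudogenes, antisense or overlapping genes could have been assigned in several ways. The gene identifiers and positions matched Ensembl 94 (GENCODE 29), from which protein lengths, snoRNA genes and shared 100-base windows (1 representative transcript a gene) were taken.

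The members were chosen by symbol and biotype. The members, the other lists and the paralog pairs were chosen with earlier results of these data known. Genes with 10 counts or more in 3 or more libraries entered edgeR 4.0.16 in R 4.3.3 (TMM, quasi-likelihood test on condition, Benjamini-Hochberg over all genes tested, calls under 0.05). The fit was tried on simulated data, whose log2 changes were larger than those of the members called, so that trial does not cover changes of their size. SE was the log2 fold change divided by the square root of F. Named were SRSF11, the members with the smallest adjusted p (up to 10 in each direction), the 3 of each subunit with the highest level per length, the tested paralogs and their partners, the members that failed the filter, FAU, RACK1, up to 3 genes of each further list by adjusted p and the 3 pseudogenes with the most counts. The further members called were given by their range. Alternatives were DESeq2 1.42.0, other scalings and filters, added pseudogene counts, a block and leaving out each library. With 14369525 to 16685719 counts a library, a value of 100 CPM rests on over 1000 counts. Some genes are not reported here.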

Additional observations from a re-analysis of the deposited data

How the results depend on the processing

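The higher calls among ribosomal protein genes numbered 23 in the main test, 16 with DESeq2, 18 with upper-quartile scaling, 17 with library size alone, 19 with TMM factors computed without these genes, 22 with no filter beyond 1 count, 18 with a minimum of 50 counts, 17 with protein-coding genes alone, 24 with pseudogene counts added and 25 with the replicate block, and 1 gene, RPL7L1, was lower in each of these. Leaving out 1 library gave 9 to 38 higher (9 without si-NC replicate 1, 15 without si-NC replicate 2, 38 without si-SRSF11 replicate 1) and 1 to 7 lower (2 without si-NC replicate 1, 7 without si-SRSF11 replicate 3). Over all tested genes the settings with 6 libraries gave 1564 to 2147 higher and 1496 to 2289 lower, with 12184 to 31826 tested. With 1 library left out, 1473 to 1981 genes were higher and 1268 to 1890 lower, with 15543 to 15626 tested. The median log2 fold change of the ribosomal protein genes stayed positive, between 0.034 without si-SRSF11 replicate 3 and 0.11 without si-SRSF11 replicate 1. It was 0.055 with library size alone. The difference in the share of counts lay between −0.072 without si-SRSF11 replicate 3 and 0.38 without si-SRSF11 replicate 1. Same-numbered libraries deviated together only weakly (r = 0.0053, 0.044 and 0.053 over genes, each below the level taken as pairing), although each library correlated best with its own number. For si-NC 1 the value with si-SRSF11 2 was nearly the same (r = 0.0050). Deviations were taken from the mean of each condition, so these values are not independent. The study describes the samples as pairs, but the sources do not say that the replicate numbers mark them, and these values do not settle it. The replicate block moved the higher calls from 23 to 25 and the median to 0.089.

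Of the 612 values of the 41 named genes under alternatives, 585 kept their direction and their side of the threshold, 7 lost a call, 10 gained one and 10 changed sign. The sign changes were in RPL10, FAU and RPL41, which lay near 0. RPL10 was at 0.0064 with pseudogene counts added and between −0.054 and 0.027 with 1 library left out, FAU between −0.086 and 0.035, and RPL41 between −0.13 and 0.042. The cause of these shifts was not tested. With 3 libraries a condition, no ribosomal protein gene with a log2 change under 0.1 in either direction was called in the main test.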
